A study of Homo sapiens with 6 samples.

Results

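Adenosine positions at which NaBH4-treated RNA was read mainly as T or C, rather than as G, were followed through an ac4C-seq experiment in the human pancreatic cancer line PANC-1. These positions were chosen on their measured reads. Of the listed positions with adenosine as the reference base, those were kept at which the G reads, summed over the 3 treated libraries of a group, did not exceed both the C reads and the T reads. The rule gave 290 of the 1352 listed sites in the control group and 215 of the 1001 listed sites in the NAT10 knockdown group, 505 of 2353 in all.

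The control group held 3 samples titled shControl and the knockdown group 3 samples titled shNAT10, so that all 6 came from 1 cell line and differed in the construct against NAT10. The labels speak of both short hairpin and small interfering RNA, and do not say whether the 3 samples of a group were separate cultures, so p-values measure only the spread between these samples, which may be technical. From each sample captured mRNA was reduced with NaBH4, and a small part was kept untreated. Each group has a table of its own, called jointly over its replicates, and a position listed in one table has no reads in the other unless it was listed there too. NAT10 itself had 0 such adenosine sites in either table, and its expression was not analysed here.

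N4-acetylcytidine (ac4C) is a cytidine carrying an acetyl group, which NAT10 adds to RNA. Reduction with NaBH4 changes the base so that reverse transcriptase tends to place an adenine opposite it, and the position is then read as T in place of C. Adenosine is not the base on which this chemistry acts. A well known change at adenosine is its deamination to inosine, which sequencers read as G, and the adenosine sites described here are those at which G did not lead.

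The sequence around 6 of the sites could be read, because these lay in a window from 250 bases before to 50 bases after the start of a gene in RefSeq (GRCh38.p14). They are shown because they give the letters next to such adenosines, written 5′ to 3′ along the strand of the site, with every listed position in capitals. The first 5 are from the control table and the last is from the knockdown table.
AP3S1, chr5:115841952-115841980, plus strand: ggatcgcaggcgagAtTacgaggcgaggc
RSU1, chr10:16817392-16817420, minus strand: cgtgttcgctgttcAgtgccggtgttgca
PRDX3, chr10:119178779-119178807, minus strand: gcccgagtgcactgAagatggcggctgct
FBXO2, chr1:11654316-11654344, minus strand: agcgatggacggagACggtgacccaggta
CNPY2, chr12:56311224-56311252, minus strand: atccgaatcgactcAgatattagcggcac
PSMD9, chr12:121888840-121888861, plus strand: gcggcccggggttcAcgatgtc

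The adenosines of AP3S1, RSU1 and PRDX3 lay 20, 18 and 19 bases after the annotated start of their own gene. Those of FBXO2, CNPY2 and PSMD9 lay in the window of a neighbouring gene on the opposite strand. Only 3 of the 290 control sites (1.03%) and 0 of the 215 knockdown sites lay in a window on their own strand, beside 4.51% and 2.20% of all listed sites, so the letters of nearly all sites could not be shown. Over all listed sites in such windows, the reference base equalled the window's letter at 89 of 89 positions on the same strand and its complement at 40 of 40 on the opposite strand.

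At PRDX3, a mitochondrial peroxiredoxin, the 3 control libraries held 6, 4 and 4 T reads among 240, 243 and 316 treated reads, with 0, 1 and 1 G reads. At AP3S1, a subunit of the AP-3 sorting complex, the adenosine was read as T in 6 of 301, 6 of 425 and 3 of 367 reads, and as no other base. The T that stands 2 bases later in the printed sequence was also listed, with 4, 7 and 3 mismatched reads. At RSU1, a partner of integrin signalling complexes, C led at the printed adenosine with 1, 1 and 5 reads against 1, 2 and 1 T reads and 4, 0 and 0 G reads. The libraries of RSU1 thus did not share a leading base, whereas T led alone at PRDX3 and AP3S1 in all 3.

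T was the usual reading. It led at 242 of the 290 control sites (83.4%, 95% Wilson interval 78.7 to 87.3) and at 179 of the 215 knockdown sites (83.3%, 77.7 to 87.7). A site is called T-led or C-led by comparing T with C alone, so sites where G tied with the leading base are included. C led at 40 (13.8%) and 30 (13.95%), and both were equal at 8 and 6. These shares follow the rule's own measure and carry no test, and all such intervals cover counting error only. At 59 control sites (20.3%) and 30 knockdown sites (13.95%) T was the sole mismatched base, and at 5 and 2 sites C was. No G read was seen at 96 (33.1%) and 54 (25.1%) sites, so at most sites some G reads accompanied T or C.

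**Figure D1:**
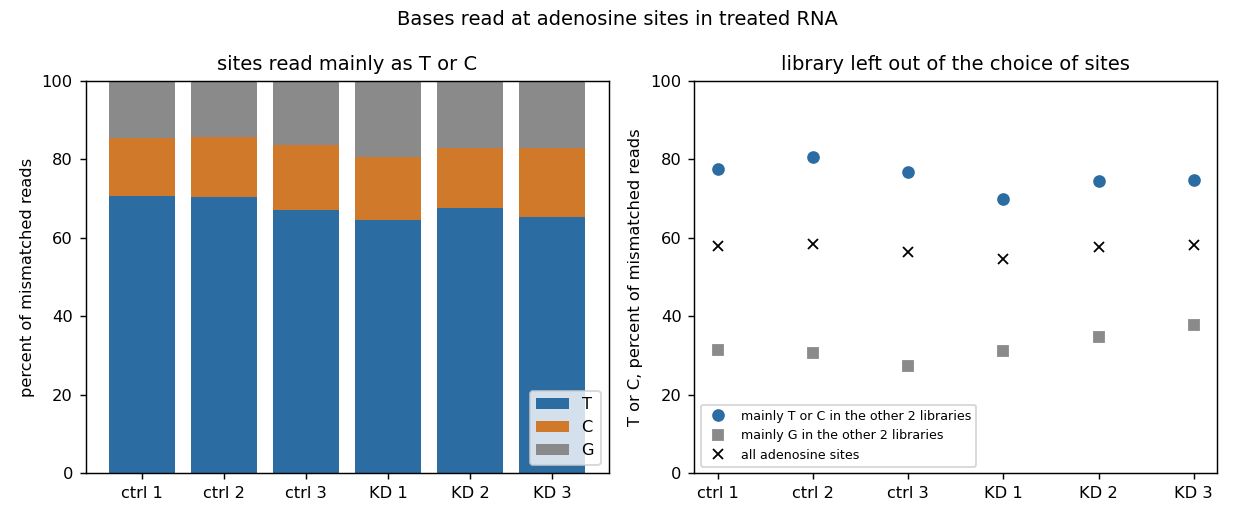
Left, the percent of mismatched reads that were T, C or G at adenosine sites read mainly as T or C, in each treated library (ctrl, control, KD, NAT10 knockdown); right, the percent that were T or C in a library that took no part in choosing the sites, for sites read mainly as T or C, sites read mainly as G and all adenosine sites. T made up 64.6% to 70.8% in every library, and the circles lie above the crosses and the squares below them in all 6 libraries.

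Pooled over sites, T took 70.8%, 70.4% and 67.1% of the mismatched reads in the control libraries and 64.6%, 67.6% and 65.4% in the knockdown libraries. C took 14.8% to 16.6% in the control and 15.3% to 17.5% in the knockdown, and G the rest. Among T and C reads alone, the control libraries had a T share of 81.6% ± 1.34 and the knockdown libraries one of 80.2% ± 1.32 (SD, n = 3 each). The difference, knockdown minus control, was -1.46 percentage points, larger than either SD, and the libraries of the groups overlapped (two-sided exact permutation test, p = 0.2, adjusted p = 0.2 over the 4 tests made, smallest p possible 0.1). Averaged over sites instead of reads, the difference was 0.145 points, so its direction is not settled. T also outnumbered C at adenosine sites read mainly as G. There its share of T and C reads was 73.9% ± 1.79 in the control and 79.0% ± 1.04 in the knockdown (SD, n = 3 each).

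The reading carried over to libraries that had not been used to choose the sites, although every library had taken part in the listing. When the sites were chosen on 2 treated libraries, the mismatched reads of the library left out were T or C in 77.6%, 80.6% and 76.9% in the control and 69.9%, 74.4% and 74.9% in the knockdown. At adenosine sites that the other 2 libraries put on the G side, the share was 27.3% to 31.4% and 31.1% to 37.6%. Over all adenosine sites it was 54.5% to 58.5%. The sites lay above the other adenosine sites in 6 of 6 libraries.

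Single sites were less even than these sums. The same base led alone in all 3 treated libraries at 141 of 290 control sites (48.6%) and at 76 of 215 knockdown sites (35.3%), beside 51.2% and 44.4% of all listed sites. At adenosine sites read mainly as G the shares were near those of the sites, 45.3% in the control and 34.9% in the knockdown. Among the sites read mainly as T or C, T led alone in every library at 123 control and 70 knockdown sites, and C at 18 and 6. At least 3 T reads in each treated library were found at 109 control sites (37.6%, Wilson 32.2 to 43.3) and 58 knockdown sites (26.98%, 21.5 to 33.3).

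The distance from the rule's threshold was small for many sites. The higher of the C and T sums equalled the G sum at 13 control sites and 13 knockdown sites, which the rule keeps. It was ahead by 1 read at 16 and 7 sites, and behind by 1 read at 18 and 26 sites, which fall outside. The control site of VEGFA, an angiogenic growth factor, had 7 G and 7 T reads, and that of SKI was inside with 5 T against 4 G reads. The site of ALKBH5, an RNA demethylase, was outside with 6 G, 5 C and 4 T reads. In the knockdown table AKT1 was inside with 7 T against 6 G reads, while PSMD7, a proteasome subunit, was outside with 11 G against 10 T reads.

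The mismatch level, the percent of treated reads that did not show adenosine, was low. Its mean over the libraries was under 5% at 265 of 290 control sites (91.4%) and 190 of 215 knockdown sites (88.4%), with medians over sites of 1.77% and 1.68%. Over all listed sites the medians were 2.23% in the control and 2.37% in the knockdown. Each treated library held between 3 and 16 mismatched reads at a control site and between 3 and 14 at a knockdown site. All 3 libraries stood at exactly 3 mismatched reads at 19 and 10 sites, and at least 1 library did so at 207 (71.4%) and 145 (67.4%). Replicate spread at a site was correspondingly wide, with a median SD of 27.9% of the mean level in the control and 28.5% in the knockdown. It was much the same over all listed sites, 28.1% and 29.8%.

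**Figure D2:**
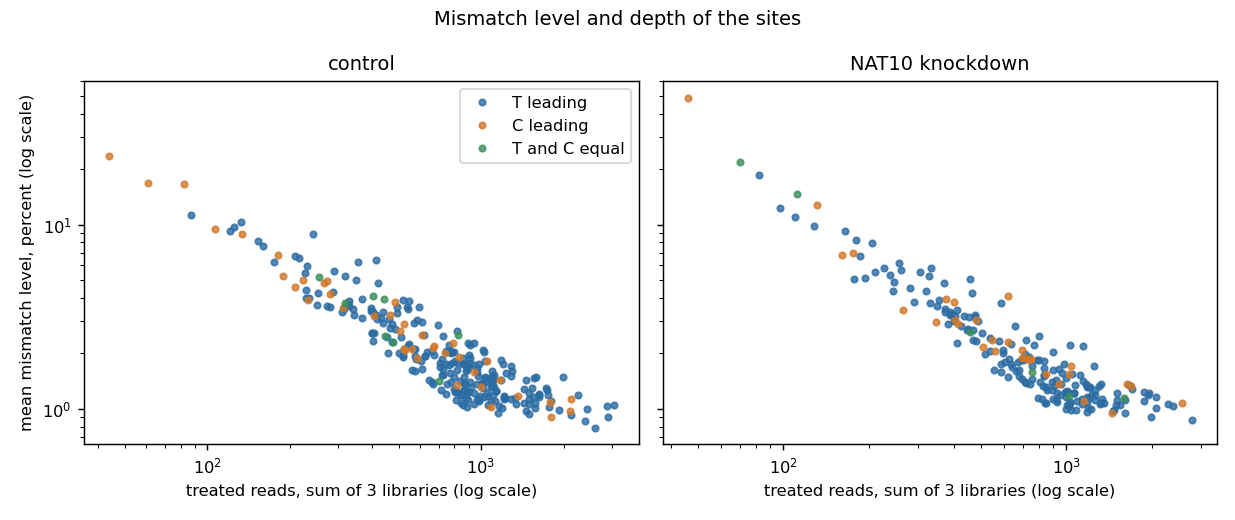
Mean mismatch level (percent, log scale) against treated reads summed over 3 libraries (log scale) for each site, coloured by the base that led. The levels fall along a band as reads rise, from 23.7% at 44 reads in the control and 48.9% at 46 reads in the knockdown to about 1% at the deepest sites.

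Level and depth were tied. Since each listed site has at least 3 mismatched reads in every treated library, a shallow site could be listed only at a high level. No listed site of either table had a median level over its 3 treated libraries below 1.00%. Deep sites with lower levels are thus not in the listing. Spearman's rho between mean level and treated reads was -0.88 over the 290 control sites and -0.91 over the 215 knockdown sites, and -0.93 and -0.94 over all listed sites. The 2 measures share their read total. The highest levels therefore rest on few reads.

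Among sites with at least 20 treated reads in every library and T leading, EML3, a microtubule-associated protein, had the highest mean level in the control, 10.3% ± 2.87 (SD, n = 3), from 4 of 36, 3 of 42 and 7 of 55 reads. SCHIP1 followed at 9.75%, ZBTB40 at 9.20%, PIGK at 8.92% and TLE3 at 8.10%. The site named by the span of PIGK is the deepest of these and lies on the strand opposite to that gene, so it is not a position of the PIGK transcript. Its T reads numbered 4, 4 and 7 with 3, 1 and 3 G reads. With C leading, PDPR stood at 9.501%, NPAT at 8.88%, GINS2 at 6.88%, ZZZ3 at 5.29% and GEMIN5 at 5.004%. NPAT is a tie with 5 C and 5 G reads. Of these 5, ZZZ3 and GEMIN5, a subunit of the SMN complex, had C ahead in every library, with 2, 3 and 3 and with 2, 3 and 4 C reads.

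In the knockdown table GFOD2 led the T group at 18.7% ± 10.5 (SD, n = 3), from 6 of 20, 3 of 32 and 5 of 30 reads. PIK3C3, the class III phosphatidylinositol kinase, was at 12.3%, F2R, a thrombin receptor, at 10.9%, JOSD2 at 9.82% and TOR1AIP1 at 9.24%. PIK3C3 and F2R are ties, each with 6 T and 6 G reads. With C leading, MRAS, a small GTPase, stood at 12.7%, KCTD3 at 7.04%, SCAF11 at 6.83%, GANAB at 4.12% and PHF23 at 3.93%. KCTD3 is a tie as well, with 6 C and 6 G reads. At SCAF11 the 3, 4 and 4 mismatched reads were all C.

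The highest levels of all fell below that depth. UBE2B, a ubiquitin-conjugating enzyme, had 7 of 14, 8 of 12 and 6 of 20 mismatched reads in the knockdown libraries, of which 7, 8 and 4 were C. Its untreated libraries held 5, 5 and 11 reads with 0 mismatched, which allows a level of up to 14.3%. In the control DEPDC1B reached 23.7%, SRSF6, a splicing factor, 16.9% and PRKCH, a protein kinase C, 16.7%. SRSF6 was read as C 4, 2 and 3 times among 19, 17 and 25 treated reads.

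The deepest sites stood near 1%, which is also where the lowest median level of any listed site lay. SERP1 in the control had 12 of 1032, 11 of 1083 and 9 of 935 mismatched reads, a level of 1.05% ± 0.104 (SD, n = 3), with 4, 11 and 6 T reads and 8, 0 and 3 G reads. MBD3, of the NuRD complex, stood at 0.905% ± 0.353 (SD, n = 3) and GANAB, a glucosidase of the endoplasmic reticulum, at 1.04% ± 0.743 (SD, n = 3). In the knockdown the 24 mismatched reads of STC2, a secreted glycoprotein, were all T, 4 of 987, 12 of 1035 and 8 of 762. So were the 20 of SCD, the stearoyl-CoA desaturase, 5 of 1147, 9 of 879 and 6 of 364. LGALS1, galectin-1, was led by C with 10, 2 and 2 reads against 4, 3 and 6 T reads.

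Untreated RNA gave no such reads at these sites, since positions were listed only where it had none. The counts of 0 below were thus fixed by the listing and are not a result. At the 290 control sites 0 of 188148 untreated reads, and at the 215 knockdown sites 0 of 156963, showed another base. The same was true of every listed site, with 0 of 675309 and 0 of 556802 reads. A count of 0 allows up to 3 reads, which at single sites means up to 0.123% to 9.09% in the control and 0.104% to 14.3% in the knockdown. The pooled treated level lay above this limit at 290 of 290 and 215 of 215 sites, as it did at 100% of all listed sites in either table, so the count is no property of these adenosines.

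The number of sites was lower in the knockdown table, by a ratio like that of the other listed sites. The ratio of 215 to 290 sites was 0.741 (95% counting interval 0.621 to 0.884). For T-led sites it was 0.740 and for C-led sites 0.750 (0.467 to 1.20). It was 0.748 for adenosine sites read mainly as G and 0.740 (0.675 to 0.812) for all other listed sites. The sites made up 55.3% of the adenosine sites in the control (Wilson 51.1 to 59.5) and 55.1% in the knockdown (50.2 to 59.99). With 1 jointly called table a group, these counts have no replicates and no test.

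The median level over sites was 1.80%, 1.75% and 1.69% in the control libraries and 1.65%, 1.60% and 1.75% in the knockdown libraries. The groups overlapped. The difference of the group means, knockdown minus control, was -0.0829 percentage points (two-sided exact permutation test over 3 and 3 libraries, p = 0.2, adjusted p = 0.2). With the mean over sites in place of the median it was 0.285 points, which turns the direction (exact permutation p = 0.1, the smallest possible).

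Against adenosine sites read mainly as G, the sites had lower levels and more reads. In a library left out of the choice, the control had a median level of 1.76% ± 0.0330 and the knockdown one of 1.65% ± 0.0415, against 2.25% ± 0.104 and 2.56% ± 0.164 at the G side (SD, n = 3 each). It was lower in 6 of 6 libraries, with a mean difference of -0.695 points (two-sided exact sign-flip permutation test, p = 0.0312, adjusted p = 0.0625). With the mean over sites the difference was -1.46 points. The median number of untreated reads was 164, 191 and 201 in the control and 233, 208 and 190 in the knockdown, against 123, 143 and 148 and 159, 140 and 144 at the G side. It was higher in 6 of 6 libraries, by 55.0 reads on average (two-sided exact sign-flip permutation test, p = 0.0312, adjusted p = 0.0625). Neither held at 0.05 after adjustment over the 4 tests, and neither could have, since the raw p is the smallest that 6 libraries allow. The untreated reads were taken at the same sites in all 3 libraries of a group, and the left-out levels at largely the same sites. The 6 libraries are thus not 6 separate comparisons, and the p-values measure repeatability between libraries, not the spread over sites.

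**Figure D3:**
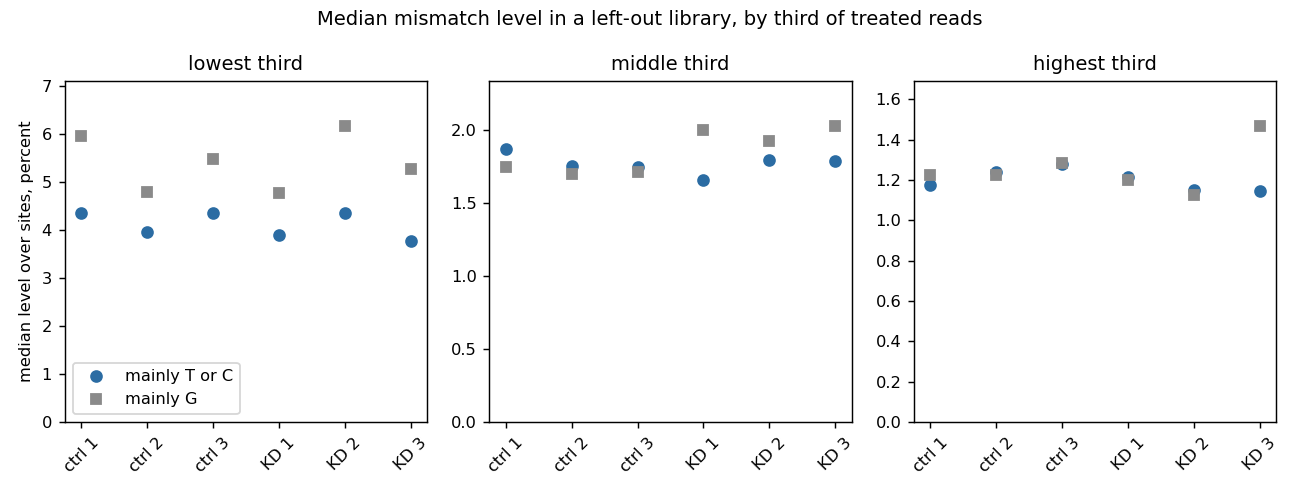
Median mismatch level in the left-out library, in percent, for adenosine sites read mainly as T or C (circles) and mainly as G (squares) in each tercile of treated reads, with an axis from 0 in each panel (ctrl, control, KD, NAT10 knockdown). The circles lie below the squares in 6 of 6 libraries in the lowest tercile, and in 3 of 6 in the middle and highest terciles.

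Depth moved with the level difference. Within the lowest tercile of treated reads over all adenosine sites, up to 484 reads in the control and 468 in the knockdown, the level was lower in 6 of 6 libraries, with a mean difference of -1.29 points. In the middle tercile the mean difference was -0.0854 points (exact sign-flip permutation p = 0.344) and in the highest tercile -0.0534 points (exact sign-flip permutation p = 0.531), each with 3 of 6 libraries lower. In the middle tercile the 3 lower libraries were those of the knockdown. A mean level of 10% or more was found at 5 control and 7 knockdown sites (1.72% and 3.26%), beside 20 and 20 sites of the G side (8.55% and 11.4%).

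Some adenosines had a listed position close by. A neighbour within 10 bases on the same strand was found for 36 control sites (12.4%, Wilson 9.10 to 16.7) and 17 knockdown sites (7.91%, 4.99 to 12.3). The share was 9.40% and 6.29% at adenosine sites read mainly as G and 13.7% and 11.9% over all listed sites. By leading base it was 8 of 40 C-led and 28 of 242 T-led sites in the control, and 4 of 30 and 12 of 179 in the knockdown, with overlapping intervals.

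In the control, 4 pairs of such adenosines stood directly next to each other, and T led at both members of every pair. At NDE1, a dynein regulator, both adenosines had 3, 3 and 3 T reads. At HSBP1L1 both had 3, 6 and 4. At SLC38A10 both had 6, 3 and 4 T reads, the first with 1 C and 1 G read more in the last library. At CDK11A, a cyclin-dependent kinase, one had 12, 5 and 5 T reads and the other 12, 5 and 3. CDK11A has a near-identical neighbour gene, CDK11B, so where its reads came from is uncertain. The tables hold counts per position, so whether single reads carried both changes is not in them.

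Other pairs differed in base. At RAB3GAP1, an activator of a Rab GTPase, the first adenosine had 6, 4 and 5 T reads and the one 2 bases later 5, 4 and 5 C reads. At MLPH, a melanosome transport adaptor, C led in sum at one adenosine with 3, 6 and 3 reads, against 0, 0 and 4 T reads. T thus outnumbered C there in the last library. At another adenosine 5 bases on, T was the sole mismatched base with 3, 6 and 6 reads. At PTP4A1, a protein tyrosine phosphatase, an adenosine read as C in 4, 3 and 4 reads stood 5 bases before one read as T in 4, 3 and 4. Between and after them a T, an adenosine and another T, each read mainly as G, had the same 4, 3 and 4 mismatched reads, so that 5 listed positions within 7 bases had equal numbers in each library. In the knockdown, NCKAP1 and HDGFL2 each held a pair, 5 and 10 bases apart, and neither pair had equal numbers.

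**Figure D4:**
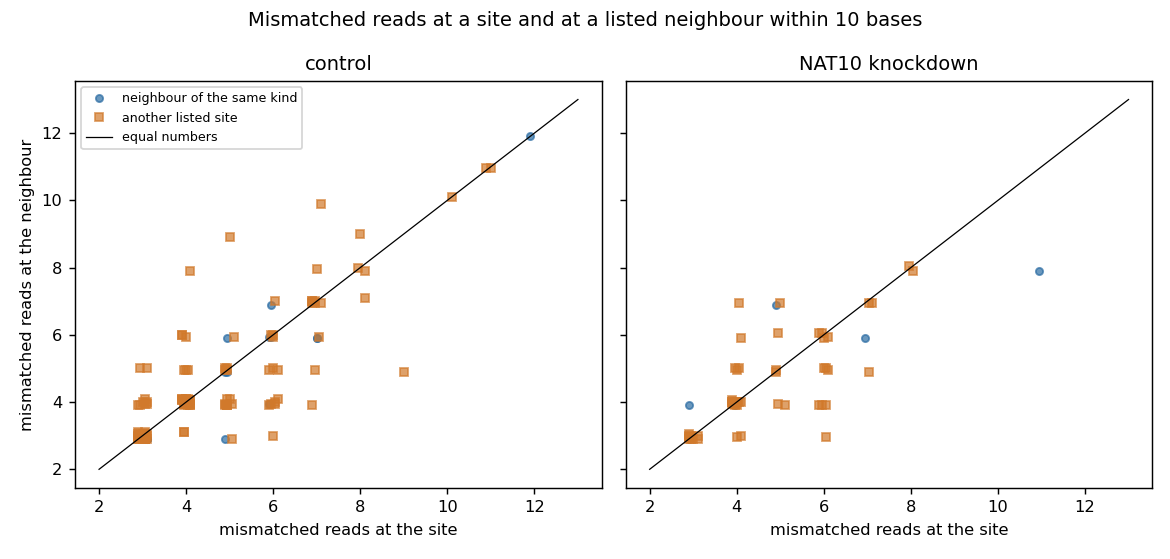
Mismatched reads in each treated library at an adenosine site read mainly as T or C (horizontal axis) and at a listed position within 10 bases on the same strand (vertical axis), with points shifted slightly to show overlaps and a line of equal numbers. Many points lie on or next to the line, and 3 of 7 pairs of such adenosines and 12 of 38 pairs with another listed site in the control were equal in all 3 libraries. The share of equal pairs over all listed sites was not counted.

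Equal numbers were also seen with listed positions of another kind, in 12 of 38 control pairs and 4 of 17 knockdown pairs, which held 33 and 17 distinct neighbours, 8 and 4 of them with equal numbers. Several of the 12 control pairs came from the positions at PTP4A1. The share of equal pairs over all listed sites was not counted, so whether equal numbers are particular to these adenosines is not known. Of the 6 distinct control neighbours that were T read mainly as G, 4 had the same mismatched reads as an adenosine site in each library, of which 2 were at PTP4A1 and 1 each at NDE1 and TARS1. At TARS1, a threonyl-tRNA synthetase, the control adenosine was read as C in 4, 7 and 4 reads, and the T 3 bases later as G in 4, 7 and 4. At SCAF11 in the knockdown the C-read adenosine and a T 6 bases later in the transcript, read as G, both had 3, 4 and 4. At CLTC, the clathrin heavy chain, the adenosine and a cytidine 1 base before it were read as T, and a guanosine 3 bases before as A, in 3, 7 and 5 reads each. At E2F4, a cell cycle transcription factor, the adenosine had 7, 3 and 11 T reads and a cytidine 2 bases before it 7, 3 and 11 mismatched reads, read mainly as A.

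The sites were spread over 279 genes in the control and 214 in the knockdown. Named by gene spans, 289 of 290 and 213 of 215 lay in a protein-coding gene, 11 and 7 of them in more than 1. Of all listed sites, 98.8% in the control and 98.3% in the knockdown lay in a protein-coding gene. Where a site lay in 1 gene of known strand, it was on that gene's strand at 243 of 245 control sites (not in PIGK and DTWD2) and 176 of 177 knockdown sites (not in TAOK3), as were 99.4% and 99.9% of all listed sites. EMC1, POLR1A and, in the knockdown, AHNAK held 3 sites each, the most of any gene. The 3 of POLR1A, the largest subunit of RNA polymerase I, lay within 100 bases of each other, with levels of 1.89%, 2.20% and 1.21%. AHNAK, a giant scaffold protein, had T leading at all 3, at 1.18%, 3.22% and 2.20%.

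**Figure D5:**
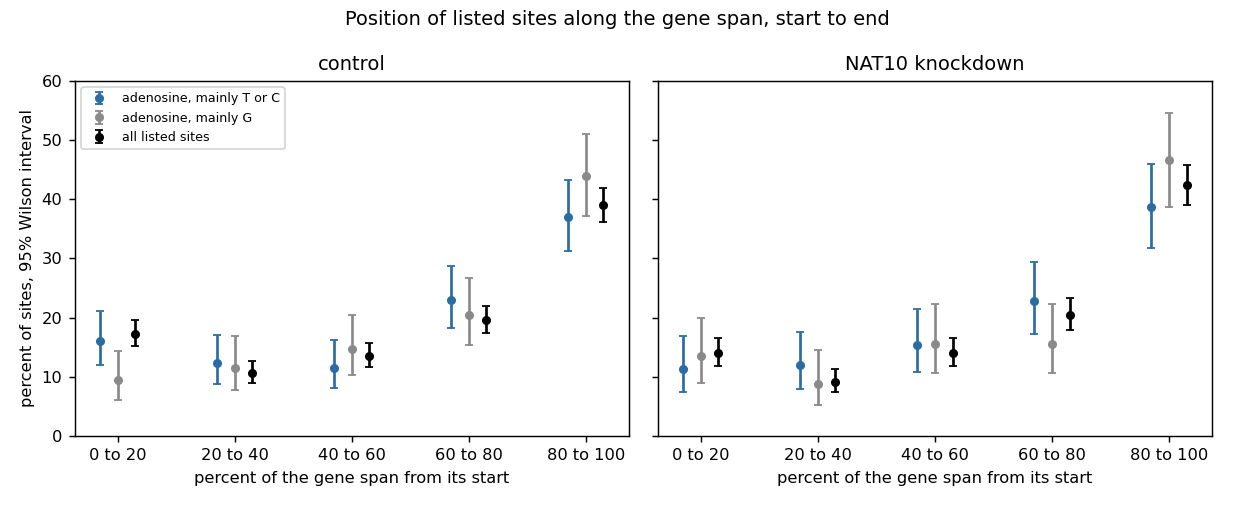
Percent of sites in each 20% of the gene span from start to end, with 95% Wilson intervals, for adenosine sites read mainly as T or C, adenosine sites read mainly as G and all listed sites. The last 20% of the span holds 37.0% and 38.6% of the sites, and the intervals of the 3 kinds overlap there.

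Along the gene span, introns included, 37.0% of control sites (Wilson 31.2 to 43.3) and 38.6% of knockdown sites (31.8 to 46.0) lay in the last 20% of it. All listed sites gave 39.0% and 42.4%. The first 20% held 16.0% and 11.4% of the sites, beside 17.3% and 13.9% of all listed sites. The share near the gene end was thus close to that of the listing as a whole. Whether a site was in an exon, an intron or a UTR was not analysed here.

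No such position was shared between the tables, and of all listed positions only 1 was, 0.0740% of those in the control and 0.0999% of those in the knockdown. Of the genes with such a site, 16 were in both, 5.73% of the control genes and 7.48% of the knockdown genes. Of the genes with any listed site, 1107 in the control and 835 in the knockdown, 18.5% and 24.6% were shared. These sets are larger, and a shared percentage depends on set size, so the 2 kinds of share cannot be compared directly. The 16 genes included AKT1, CENPF, GANAB, GIPC1, IQGAP1, JPT2, LRP5, MFGE8, MLPH, PHF12, PPRC1, PRPF19, RSU1, SCAF4 and TARS1. At PHF12, a chromatin repressor subunit, the sites were directly adjacent, on the minus strand of chromosome 17 at 28923935 in the control and 28923934 in the knockdown. The control adenosine had 6 of 383, 3 of 411 and 5 of 342 T reads, and the knockdown adenosine 2 of 298, 3 of 253 and 3 of 287 with 1 G read in the first library. Their levels were 1.25% ± 0.456 and 1.08% ± 0.0942 (SD, n = 3 each).

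The next closest were MFGE8 at 24 bases and RSU1 at 30. At MFGE8, a secreted adhesion protein, T led in the control at 1.47% and C in the knockdown at 1.37%. At RSU1, T led at both, at 1.36% and 2.36%. At AKT1, a kinase of growth factor signalling, the sites were 20188 bases apart and T led at both, at 1.04% ± 0.289 and 2.43% ± 0.632 (SD, n = 3 each). These are different positions, so their levels cannot be set against each other as a change at a site.

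Gene lists chosen with earlier results known held few of the sites. Of genes the study named for this assay, JUN, an AP-1 transcription factor, had a control site with 2, 1 and 3 T reads and 1, 2 and 0 C reads among 221, 256 and 191, 1 of the 12 listed sites in that list. In the knockdown the list had 0 of 3. These are 0.345% and 0% of the sites in the control and the knockdown, beside 0.888% and 0.300% of all listed sites. Focal adhesion and actin genes held 5 control sites of 29 (ACTN1, AKT1, GIT1, JUN and VEGFA) and 2 knockdown sites of 18, with AKT1 in both tables. That is 1.72% and 0.930% of the sites, beside 2.14% and 1.80% of all listed sites. ACTN1, an actin crosslinker, stood at 1.22% ± 0.253 (SD, n = 3) in the control.

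RNA modification enzymes and readers had 0 control sites of 6 and 2 knockdown sites of 7, PUS1 and IGF2BP2. That is 0% and 0.930% of the sites, beside 0.444% and 0.699% of all listed sites. At PUS1, a pseudouridine synthase, the knockdown libraries had 4 T reads each among 241, 274 and 377, and no other mismatched base. At IGF2BP2, an m6A reader, T led with 3, 2 and 7 reads against 6, 1 and 0 G reads. Genes whose symbols begin as ribosomal proteins do had 4 control sites of 7, in RPL4, RPL22L1, RPS16 and RPSA2, and 0 of 4 in the knockdown. That is 1.38% and 0% of the sites, beside 0.518% and 0.400% of all listed sites. RPS16 had 4, 8 and 8 T reads among 1081, 703 and 662. Ribosomal protein genes have near-identical copies in the genome, so the origin of these reads is uncertain.

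The vesicle traffic list had the most sites of any list in the control, 11 of 33 (3.79% of the sites, beside 2.44% of all listed sites) and 4 of 24 in the knockdown (1.86%, beside 2.40%). Those 11 come from fewer genes, since RAB3GAP1 and VPS16 each held more than 1. The VPS16 sites also lie in the span of PTPRA, so their gene is uncertain. The ubiquitin list held 5 of 24 and 4 of 26 sites, or 1.72% and 1.86% of the sites in the control and the knockdown, beside 1.78% and 2.60% of all listed sites. The chromatin list held 4 of 23 and 4 of 12 sites, or 1.38% and 1.86% of the sites in the control and the knockdown, beside 1.70% and 1.20% of all listed sites. The splicing and RNA helicase list held 2 of 30 and 4 of 20 sites, or 0.690% and 1.86% of the sites in the control and the knockdown, beside 2.22% and 2.00% of all listed sites. Apart from the vesicle traffic list, none of these lists held more than 5 of the sites in a table. The ZNF list held 3 of 17 and 2 of 13 sites, or 1.03% and 0.930% of the sites in the control and the knockdown, beside 1.26% and 1.30% of all listed sites. The DNA repair list held 1 of 10 and 1 of 7 sites, or 0.345% and 0.465% of the sites in the control and the knockdown, beside 0.740% and 0.699% of all listed sites.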

How the data were processed

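Per the labels and the study's methods, reads were trimmed with fastp 0.23.1, deduplicated by UMI and aligned with STAR 2.7.6a to GRCh38, mismatches were piled up with JACUSA, and positions were called jointly per group. The authors deposited, for each position and library, counts of A, C, G and T reads and counts of reads with and without the reference base, which agreed at 8112 of 8112 and 6006 of 6006 comparisons. Levels, shares and tests were computed here from these deposited counts. The authors' difference and p-value columns compare treated with untreated RNA and were not used, nor were 24 per-library columns of mismatch rates and base changes. Gene names came from RefSeq spans. Treated libraries held 57282 to 82453 reads over the sites and untreated ones 50092 to 68375. The members and gene lists were chosen with earlier results of these data known. Sites named are the 5 highest levels per leading base, the 3 deepest, shared genes, listed genes, close pairs and ties with their nearest neighbours. Exact permutation and sign-flip tests were run in Python 3.11.15 with scipy 1.17.1, tested on simulated data; other rules, averages, depth filters and left-out libraries were tried as alternatives. Some items are not reported here.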

Additional observations from a re-analysis of the deposited data

Results flagged for a closer look

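In the middle tercile of treated reads, a split chosen after seeing the data, the median level of a left-out library at adenosine sites read mainly as T or C, minus that at adenosine sites read mainly as G, had opposite signs in the 2 groups. It was 0.122, 0.0503 and 0.0299 percentage points in the control libraries, with a mean of 0.0675. It was -0.340, -0.129 and -0.246 points in the NAT10 knockdown libraries, with a mean of -0.238. The difference between the groups was not tested.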

How the results depend on the processing

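The number of sites stayed within 1.5 times of 290 and 215 under every alternative rule. The T or C share of a left-out library moved by less than its SD. The count above the untreated limit was 281 and 214 with a limit of 5 reads, and 280 and 208 with at least 20 reads in every library. Averaging over sites turned the level difference between groups to 0.285 points and the T share difference to 0.145 points, and the cause was not tested. Without single libraries these differences ran from -0.124 to -0.0510 and from -2.21 to -0.817 points. With the replicate number as a replicate block they were -0.0829 (exact sign-flip permutation p = 0.5) and -1.46 points (exact p = 0.25). The numbers could not be checked as pairs, since no such site is in both tables. Against the G side, the mean over sites gave -1.46 points in place of -0.695. Leaving out 1 library gave -0.751 to -0.636 points and 51.2 to 57.9 reads, with exact sign-flip p = 0.0625, the smallest 5 libraries allow. In the control alone the differences were -0.484 points and 47.3 reads, and in the knockdown alone -0.906 points and 62.7 reads (exact sign-flip p = 0.25 each, the smallest 3 libraries allow). In the middle and highest terciles of treated reads, a split chosen after seeing the data, the level differences were -0.0854 and -0.0534 points. Counting only neighbours of the same kind gave 4.83% of control and 1.86% of knockdown sites. Depth limits single sites, with 3 to 16 mismatched reads a library in the control and 3 to 14 in the knockdown.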
